A study of Mus musculus with 18 samples.

Results

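The unfolded protein response and the integrated stress response were examined in mouse oligodendrocyte progenitor cells (OPCs), the cells from which myelin-forming oligodendrocytes arise, as 36 genes of the 22305 protein-coding gene names in the table. A member is a gene whose name equals an entry of a fixed list. Its level is the sum of the TPM (an abundance corrected for transcript length and library total) of its protein-coding transcripts. The list holds 21 genes of the Atf4 arm (Atf4, its partner factors and its textbook targets), 5 genes of the eIF2 kinases and eIF2 alpha, and 10 genes of the endoplasmic reticulum arm (sensors, factors and chaperones). All 36 were found in the table, and 35 had a mean of at least 1 rescaled TPM over the 18 libraries and were tested. The exception was Cebpb, a C/EBP factor, which reached at most 1.05 rescaled TPM in any library.

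The cells were clonal OPC lines derived from primary neural stem cells, 3 of them control (named D7, D3 and E8) and 3 lacking Thap1 (named 3F, D6 and 7F, the null clones). Thap1 encodes a DNA-binding factor with a THAP-type zinc finger, and the study follows its loss through oligodendrocyte differentiation. Each clone was sampled once as OPCs in growth medium with PDGF-AA (day 0), and after 2 days (DIV2) and 4 days (DIV4) of differentiation with T3 thyroid hormone at 40 μg/ml. This gave 6 groups of 3 libraries, with 1 library from each clone. How the null allele was made, and whether clones of 1 genotype came from 1 or several animals, is not given in the sources used here. Values below are listed in the order D7, D3, E8 for control and 3F, D6, 7F for null.

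Cells slow protein synthesis under several kinds of stress by phosphorylating the translation factor eIF2 alpha, which favours translation of Atf4, a factor that then activates genes of amino acid supply, redox balance and cell death. Misfolded protein in the endoplasmic reticulum engages this route through the kinase PERK (Eif2ak3), and in parallel engages IRE1 (Ern1) with Xbp1, and Atf6, which raise chaperones of that organelle. Oligodendrocytes make large amounts of membrane protein and lipid for myelin and are known to be sensitive to both routes. Protein, phosphorylation and Xbp1 splicing were not analysed here, so the values below are RNA levels only.

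The deposited TPM of the control OPC libraries was filled by 3 noncoding features (64.8% to 88.0% of the total), and protein-coding transcripts held 5.05% to 9.003% there against 19.1% to 38.8% in the other 15 libraries. The same features held 34.8% in null D6 OPC, apart from the other null OPCs (0.789% and 1.06%), and at most 3.17% at DIV2 and DIV4. The TPM of each library was therefore divided by a median-of-ratios factor over protein-coding genes, and the result is called rescaled TPM. The factor was lowest for the OPC libraries of control E8 (0.127), D7 (0.291) and D3 (0.324) and null D6 (0.727). On the deposited TPM the median gene was higher by 1.49 on the log2 scale in null than in control OPCs, against 0.0381 after rescaling, so changes against the control OPC group are read on the rescaled values. Thap1, the targeted gene, had 2.25 to 4.38 rescaled TPM in control at the OPC stage and at DIV4 and 1.93 to 2.78 at DIV2. In the 9 null libraries it had 0.196 to 0.772, and its log2 change in null was -1.63, -1.13 and -1.44 at OPC, DIV2 and DIV4 (limma adjusted p = 0.000116, 0.00262 and 0.000403). The labelled cell type was checked by 6 OPC markers (Pdgfra, Cspg4, Sox10, Olig1, Olig2 and Ptprz1), all present in OPC libraries with a summed level of 418 to 803 rescaled TPM. Microglia markers summed to at most 4.55 in any library. By levels of cycling-cell or cell type markers, given below, control D3 stood apart at the OPC stage and control D7 at DIV4. Counts of called members are given with and without these libraries, and without each clone, D6 and E8 included, where they changed.

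The level of the Atf4 arm changed more over the stages than that of the endoplasmic reticulum arm. The mean log2(rescaled TPM + 1) over the 20 tested genes of the Atf4 arm was 3.09, 3.76 and 3.01 in control OPCs and 2.82, 2.86 and 2.68 in null OPCs. It was 2.54, 2.66 and 2.59 in control and 2.89, 2.85 and 2.84 in null at DIV2. At DIV4 it was 2.72, 4.66 and 3.88 in control and 4.81, 5.07 and 4.98 in null. The DIV4 libraries thus held the highest and most uneven levels: all 3 null clones were near 5, control D3 was close below them, E8 lay between, and D7 had stayed at its DIV2 level. Over the 10 genes of the endoplasmic reticulum arm the same mean lay between 3.82 and 4.39 in all 18 libraries. Over the 5 genes of the eIF2 kinases and eIF2 alpha it lay between 2.35 and 2.96.

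**Figure D1:**
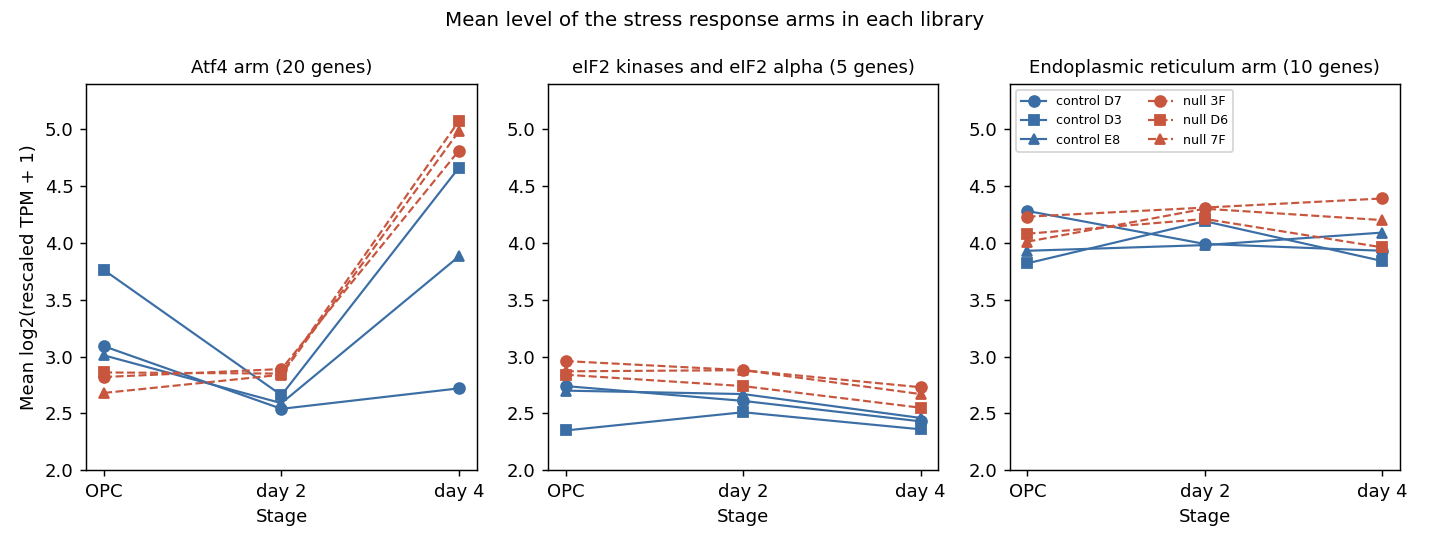
Mean log2(rescaled TPM + 1) over the tested genes of the Atf4 arm, the eIF2 kinases and eIF2 alpha, and the endoplasmic reticulum arm, for each clone (one line per clone, control solid, null dashed) at the 3 stages. The Atf4 arm reached 4.81 to 5.07 in the null clones at day 4 against 2.72, 4.66 and 3.88 in control D7, D3 and E8, while the endoplasmic reticulum arm stayed within 3.82 to 4.39.

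Between genotypes, 7 of 35 members were called at DIV4 by limma (adjusted p under 0.05 over 10400 genes), against 5.49% of all genes tested. All 7 were higher in null, against 3.14% of all genes called higher: 6 of 20 in the Atf4 arm (Nupr1, Trib3, Shmt2, Slc7a11, Ddit3 and Cebpg) and 1 of 10 in the endoplasmic reticulum arm (Herpud1), with 0 of 5 among the kinases and eIF2 alpha. At an unadjusted p under 0.05 those counts were 16 of 20, 3 of 10 and 1 of 5, against 22% of all genes. The median log2 change at DIV4 was 1.03 in the Atf4 arm and 0.205 in the endoplasmic reticulum arm, against -0.00615 over all genes. The median of the Atf4 arm minus that of the endoplasmic reticulum arm was -0.47 in OPCs, 0.15 at DIV2 and 0.82 at DIV4, a description with no test. The groups did not overlap, with null higher, for 14 of 20 Atf4 arm genes, against 14.8% of all genes. The same held for 3 of 10 endoplasmic reticulum genes (Herpud1, Xbp1 and Atf6). Among the kinases and eIF2 alpha it held for 2 of 5 (Eif2ak3 and Eif2ak4). Nupr1 passed the filter only through the null DIV4 group and Slc7a11 mainly through the null libraries. For both, the filter favoured a higher value in null.

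The DIV4 count depended on which libraries were used. With only the DIV4 libraries in the fit, 1 member (Nupr1) was called, with 178 genes called in all. Without the DIV4 library of control D7, an alternative chosen after seeing the data, 1 member (Nupr1) was called and the median of the Atf4 arm was 0.705. Without clone D3 at all stages 16 members were called, and without D7 or E8 at all stages 4 and 1. Of all 10400 genes those fits called 1005, 906 and 370 in that order, and the fit without the D7 DIV4 library called 632. Without null clone 3F, D6 or 7F the counts were 1, 2 and 1, with 121, 350 and 84 genes called in all against 571. Taken 1 clone at a time at DIV4, D7 lay below every null clone for 18 of 20 Atf4 arm genes (median difference from the null mean -2.06 on the log2 scale), E8 for 18 (-1.12) and D3 for 14 (-0.253). Of all genes 37% lay below every null clone in D7, 38.4% in E8 and 37.8% in D3.

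Cell type markers differed among the DIV4 libraries, above all between D7 and the rest. The 8 oligodendrocyte markers summed to 10604, 1875 and 1803 rescaled TPM in control and 1050, 1888 and 1168 in null. The 7 astrocyte markers summed to 13.1, 227 and 481 in control and 259, 184 and 279 in null. D7, the control library with the lowest Atf4 arm, thus had by far the most oligodendrocyte RNA and the least astrocyte RNA of the 6. Among the other five, E8, with the lowest arm of these at 3.88, had the most astrocyte RNA by the sum. Null D6, with the highest arm at 5.07, had the least astrocyte RNA and the most oligodendrocyte RNA of the null clones. Gfap was at 0.18 in D7 against 78.4 to 233.6 in the other five, while Gja1 was at most 0.101 in all 6. The rest of the astrocyte list varied. Aqp4 was at 0.102 in D7, 3.025 and 6.6 in D3 and E8, and 0.135 to 0.198 in null. Slc1a2 was at 0.119, 27.2 and 29.9 in control and 2.61 to 5.62 in null. Slc1a3 was at 0.307, 25.3 and 72 in control and 3.11 to 7.81 in null. Aldoc was at 11.3, 69.4 and 135.7 and 89.7 to 169.9, and Aldh1l1 at 1.06, 1.53 and 2.95 and 0.865 to 2.06. The genotypes did not overlap for 3 other lists: the 6 OPC markers summed to 313, 410 and 394 in control and 172, 211 and 192 in null, and the 8 cycling-cell genes to 20.5, 21.5 and 35.9 in control and 8.12, 17.4 and 20.3 in null. The third was that of the microglia markers, at 0.96, 1.14 and 1.49 and 2.84, 4.55 and 2.49, with the defining gene Tmem119 at 0 and P2ry12 holding most of the sum (2.29 to 4.36 in null). The 7 neuron markers summed to 43.2 to 91.8. The part of cell makeup in the Atf4 arm difference was not tested, and in such bulk libraries fewer cells of a type and less RNA per cell cannot be told apart.

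**Figure D2:**
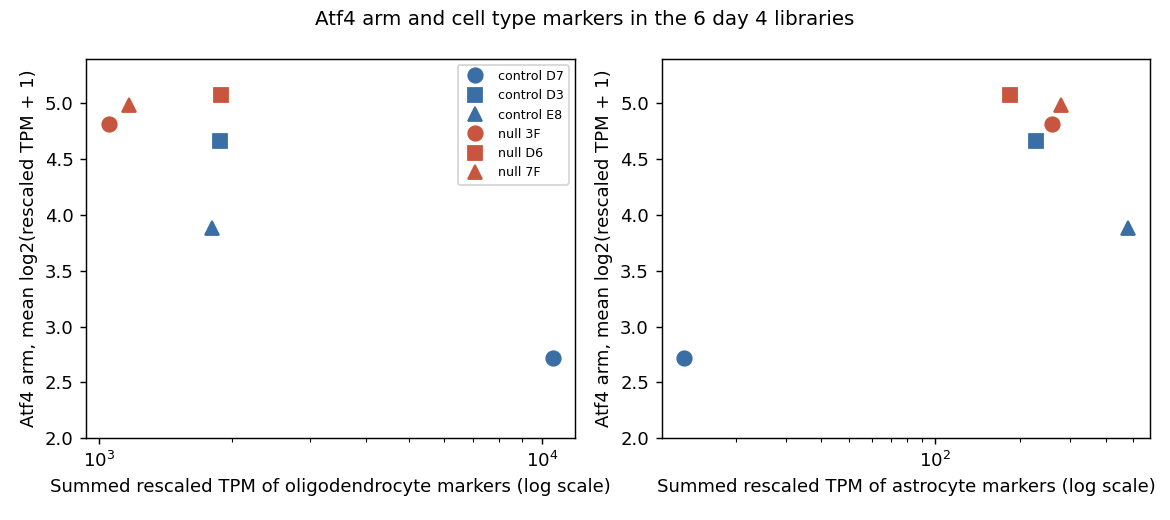
Mean log2(rescaled TPM + 1) of the Atf4 arm (vertical axis) against the summed rescaled TPM of the oligodendrocyte markers (left) and astrocyte markers (right), both on log axes, for the 6 day 4 libraries (1 point per clone). Control D7, at 2.72, stands alone at high oligodendrocyte and low astrocyte levels, and the other five libraries lie at 3.88 to 5.07.

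In OPCs 6 of 35 members were called between genotypes, against 11.9% of all genes tested. Those higher in null were Slc7a11, Eif2ak2, Eif2s1 and Dnajb9, 4 members against 5.92% of all genes, and those lower were Ddit3 and Sesn2, 2 members against 5.95%. The null clones lay below all control clones for 6 of 20 Atf4 arm genes, against 12.3% of all genes. The median log2 change of the Atf4 arm was -0.438 and that of the endoplasmic reticulum arm 0.0286, against 0.0381 over all genes. Without the OPC library of control D3 the medians were -0.279 and -0.107 and 5 members were called: Slc7a11, Dnajb9 and Sesn2 as before, with Atf6 and Shmt2. Of all 10400 genes 2004 were called in that fit, against 1235 with the library. The D3 OPC library held 26.2 rescaled TPM over 8 cycling-cell genes, against 433 and 324 in D7 and E8 and 377 to 418 in the null OPCs. Its oligodendrocyte markers summed to 427, against 170 and 51.9 in D7 and E8 and 205 to 295 in the null OPCs. It was also the highest of the control OPCs for 14 of 20 Atf4 arm genes. Whether these marker levels and the arm are connected was not tested. The OPC markers summed to 618, 803 and 612 in control and 531, 524 and 418 in null OPCs, and the neuron markers to 14.8, 30.4 and 25.1 and 7.51, 13.4 and 14.6, without overlap; their part in the OPC differences was not tested. The OPC count was 0 without null 3F or 7F, 3 without D6 and 2 without control E8. Over all genes those fits called 525, 179, 656 and 532 in that order.

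At DIV2 Slc7a11 alone was called, 1 of 35 members, against 3.18% of all genes tested and 1.93% called higher. No gene of the endoplasmic reticulum arm or of the kinases was called by limma, and at an unadjusted p under 0.05 there were 0 of 10 and 2 of 5, against 15.9% of all genes. The median log2 changes were 0.298 in the Atf4 arm and 0.144 in the endoplasmic reticulum arm, against -0.00515 over all genes. Small shifts were common: the null clones lay above all control clones for 11 of 20 Atf4 arm genes and 3 of 10 endoplasmic reticulum genes, against 16.1% of all genes. At DIV2 the cycling-cell genes summed to 5.23, 11.9 and 6.34 in control and 13.5, 40.1 and 22.1 in null, and the OPC markers to 274, 403 and 222 and 159, 205 and 158, without overlap; their part in the shifts of the members was not tested. Without control D7, control D3 or null D6 a second member was called, Sesn2, Vldlr and Eif2ak3 in that order. Those fits called 702, 340 and 339 genes in all, against 331.

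**Figure D3:**
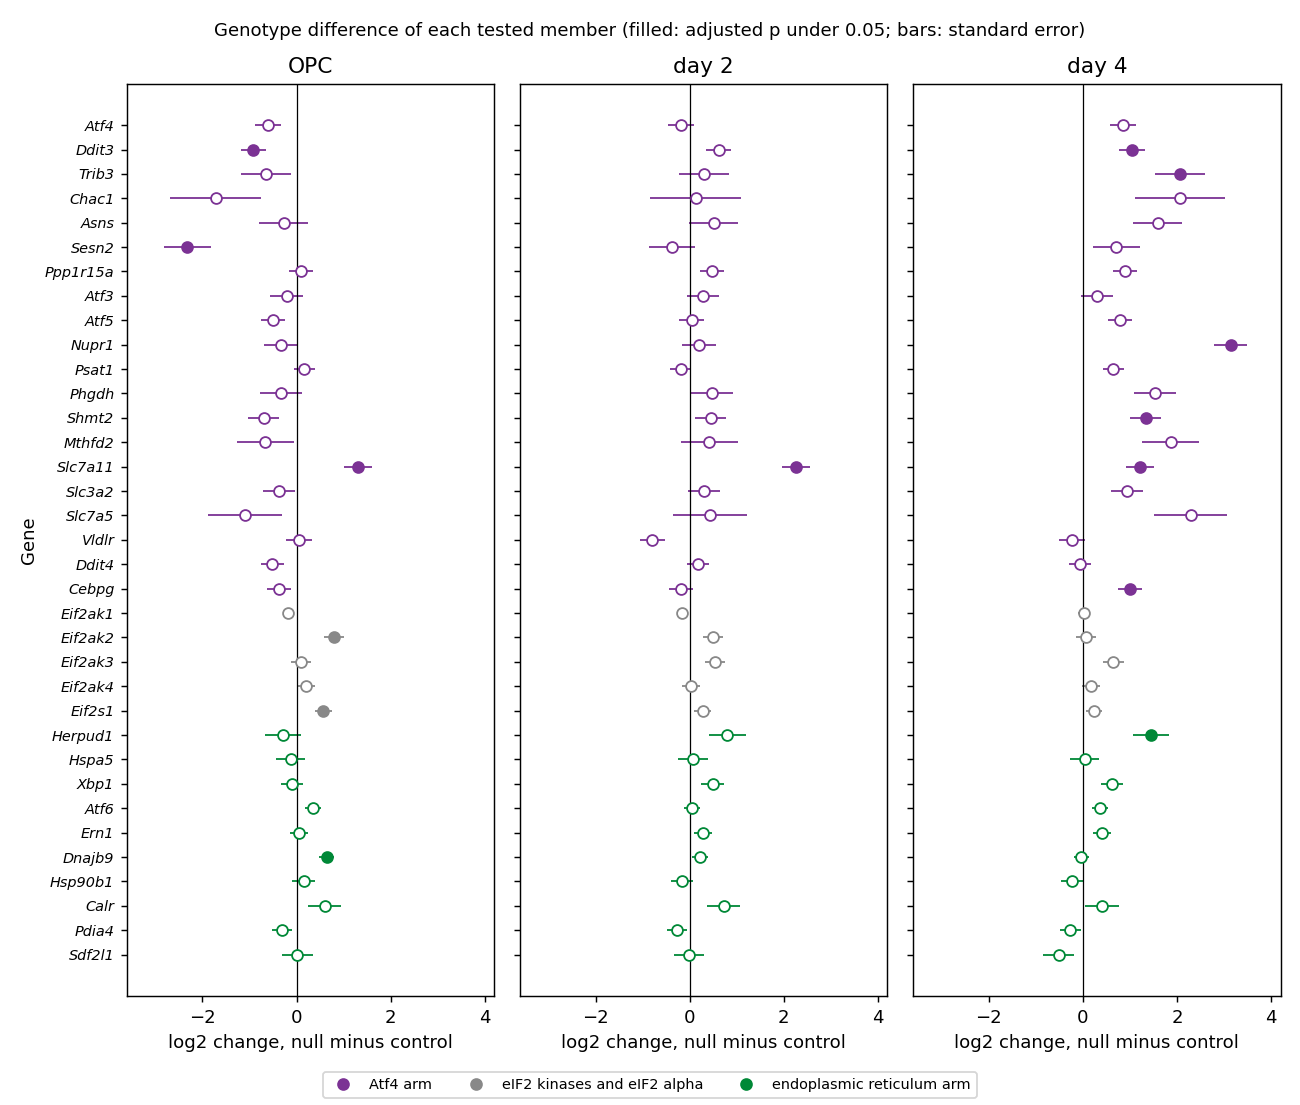
Log2 change (null minus control, horizontal axis) with its standard error for the 35 tested members (rows) at the 3 stages, coloured by arm and filled where the limma adjusted p was under 0.05. Most Atf4 arm genes lie right of 0 at day 4, where 6 of 20 were called, while most of the endoplasmic reticulum arm stays near 0, with Herpud1 called.

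Atf4 itself (ENSMUSG00000042406, GRCm38 chromosome 15, 80255184 to 80257541, plus strand) had 39.7, 83.3 and 51.7 rescaled TPM in control OPCs and 36.1, 40.03 and 32.4 in null OPCs. At DIV2 it had 46.2, 54.1 and 48.6 in control and 49.2, 41.9 and 39.3 in null. At DIV4 it had 36.3, 90.8 and 67.9 in control and 109, 115 and 109.8 in null. The 3 null values at DIV4 were close together and above all control values, but the control spread was wide, and limma made no call, the log2 change being 0.86 (SE 0.28, adjusted p = 0.0815). Within the null clones its rise from DIV2 to DIV4 was called, at 1.34 (SE 0.28, adjusted p = 0.0202).

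Ddit3 (ENSMUSG00000025408, chromosome 10, 127290774 to 127296288, plus strand), which encodes CHOP, a factor linked to cell death under prolonged stress, changed in opposite directions at the 2 ends of the course. It had 4.56, 10.9 and 9.58 rescaled TPM in control and 2.99, 4.17 and 4.04 in null OPCs, a log2 change of -0.92 (SE 0.27, adjusted p = 0.038) by limma. At DIV4 it had 9.35, 19 and 11.7 in control and 23.3, 34.4 and 25.9 in null, a change of 1.04 (SE 0.27, adjusted p = 0.0341). At DIV2 the values were 5.52, 6.25 and 4.86 and 9.47, 9.38 and 8.2, with null above control but not called (adjusted p = 0.269). The groups did not overlap at any stage, with null lower in OPCs and higher afterwards. The OPC direction holds on the rescaled values: on the deposited TPM the change was 0.72, beside the shift of 1.49 in the median gene. GENCODE M21 lists 2 overlapping genes under the name Ddit3, whose reads may have been split between them, so its level is uncertain to that extent.

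The partner factors differed in level and in size of change. Cebpg, a C/EBP factor that pairs with Atf4, had 6.59, 18.2 and 9.76 rescaled TPM in control and 21.1, 23.3 and 22.7 in null at DIV4, a log2 change of 1.01 (SE 0.26, adjusted p = 0.0339) by limma. Atf5, a close relative of Atf4, had 3.19, 10.6 and 6.81 and 9.18, 12.2 and 13.8, with control D3 inside the null range and no call (adjusted p = 0.0901). Atf3, an early stress factor, was low throughout, at 1.3, 5.42 and 2.91 in control and 2.52, 5.75 and 3.56 in null at DIV4, and the groups overlapped. In the null clones all 3 of these rose from DIV2 to DIV4, by 1.80 for Cebpg, 1.63 for Atf5 and 1.61 for Atf3 on the log2 scale. Atf3 had a mean of 0.93 outside the null DIV4 group and passed the filter only through that group.

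Among the stress effectors, Nupr1 (ENSMUSG00000030717, chromosome 7, 126623249 to 126630861, minus strand), a small stress-induced nuclear protein, differed most at DIV4. It was at most 1.13 rescaled TPM in every library before DIV4. At DIV4 it had 0.04, 2.75 and 1.31 in control and 18.3, 15.3 and 18.6 in null. Every null clone was thus far above every control clone, with a log2 change of 3.14 (SE 0.36, adjusted p = 0.000139) by limma. Nupr1 passed the filter only through the null DIV4 group (its mean over the other 15 libraries was 0.394), so its group at DIV4 had to be high for it to be tested. It was called in all 15 alternatives that tested it, among them the one without a filter, with an adjusted p of 7.91e-06 to 0.0315.

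Trib3, a pseudokinase induced by Atf4 and CHOP, was near 0 in most libraries before DIV4. At DIV4 it had 1.27, 14 and 6.25 rescaled TPM in control and 22.6, 31.7 and 22.7 in null. The groups did not overlap, and the log2 change was 2.07 (SE 0.53, adjusted p = 0.0348) by limma. Chac1, an enzyme that degrades glutathione, had 0.83, 42 and 20.8 in control and 46, 55.1 and 46.9 in null at DIV4. Control D3 nearly reached the null level while D7 stayed under 1, and limma made no call, the change being 2.07 (SE 0.96, adjusted p = 0.224). Control D3 stood out for Chac1 among OPCs: the control values were 1.53, 27.5 and 0.95, against 0.83, 0.66 and 0.3 in null.

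Sesn2 (ENSMUSG00000028893, chromosome 4, 132492032 to 132510501, minus strand), a leucine sensor that restrains mTORC1, showed its genotype difference in OPCs. It had 7.83, 22.6 and 23.3 rescaled TPM in control and 2.47, 2.76 and 2.1 in null OPCs. All null clones were lower, with a log2 change of -2.32 (SE 0.49, adjusted p = 0.00832) by limma. At DIV4 the order was no longer there: 3.04, 22.8 and 16.9 in control and 17.7, 19.6 and 18.7 in null, with the groups overlapping. Ddit4, another restraint on mTORC1, had 56.5, 33.4 and 31.8 in control and 29, 42.2 and 43.9 in null at DIV4, and with Vldlr was 1 of 2 Atf4 arm genes highest in D7 among the control clones. Ppp1r15a, the GADD34 subunit that directs a phosphatase to eIF2 alpha, had 2.88, 7.84 and 4.22 and 9.35, 9.63 and 9.35, with a change of 0.89 (SE 0.26, adjusted p = 0.0574) that missed the threshold.

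The genes of amino acid and one-carbon metabolism shared an order of control clones at DIV4. Asns, asparagine synthetase, had 12.2, 115 and 50.04 rescaled TPM in control and 118, 136 and 132 in null at DIV4. Shmt2, the mitochondrial serine hydroxymethyltransferase, had 8.67, 29.1 and 14.7 and 36.1, 44.6 and 42.3. Mthfd2, its neighbour in the mitochondrial folate pathway, had 2.25, 40.01 and 17.4 and 47.2, 52 and 45.9. In each of these, D7 was lowest, E8 intermediate and D3 highest of the control clones but below all null clones. By limma the log2 change was called for Shmt2, at 1.34 (SE 0.33, adjusted p = 0.0278), and not for Asns (1.60, adjusted p = 0.0865) or Mthfd2 (1.87, adjusted p = 0.0836).

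The serine synthesis enzymes were less alike. Phgdh, which catalyses the first step, had 11.2, 73.4 and 33.1 in control and 80.1, 107 and 83.4 in null at DIV4 (log2 change 1.53, limma adjusted p = 0.0605). Psat1, the next enzyme, had 56.1, 84 and 64.8 and 91.8, 96.5 and 134 (log2 change 0.64, limma adjusted p = 0.106). Null was above control for both, without a call. Values of Phgdh are uncertain, since 71.5% of its 31-mers (31-base words) also occur in other genes, above all a copy named Gm7901.

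Among the transporters, Slc7a11 (ENSMUSG00000027737, chromosome 3, 49892526 to 50443614, minus strand), the cystine importer that feeds glutathione synthesis, was called at all 3 stages. It had 0.11, 0.38 and 0.64 rescaled TPM in control and 2.17, 2.58 and 2.27 in null OPCs. At DIV2 it had 0.12, 0.17 and 0.23 and 3.8, 6.25 and 4.07, and at DIV4 0.17, 2.69 and 1.31 and 3.69, 4.4 and 3.93. Every null clone was above every control clone at each stage. By limma its log2 change was 1.30 (SE 0.30, adjusted p = 0.0126) before differentiation. At day 2 it was 2.26 (SE 0.30, adjusted p = 0.000412). At day 4 it was 1.22 (SE 0.30, adjusted p = 0.028). A second transcript, not protein-coding, held 52.2% of its deposited TPM on average in control DIV4 and 13.7% in null DIV4. With all biotypes summed, the changes were 1.19 (adjusted p = 0.0129) in OPCs, 1.64 (adjusted p = 0.00352) at DIV2 and 0.88 (adjusted p = 0.0811) at DIV4, the last no longer called. Its group means were 0.375, 0.173 and 1.39 in control and 2.34, 4.71 and 4.01 in null, in order of stage. It thus passed the filter mainly through the null libraries, which favoured a higher value in null. The DIV2 change was called in all 15 alternatives that tested it, among them the one without a filter. That alternative made no call of Slc7a11 at DIV4.

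Slc3a2 and Slc7a5 encode the heavy and light chain of the leucine exchanger. Slc7a5 had 0.76, 50.3 and 17.3 rescaled TPM in control and 51.6, 53.5 and 66.4 in null at DIV4, after 0.51, 2.17 and 1.2 and 2.35, 1.34 and 2.3 at DIV2. Slc3a2 had 17.5, 75.5 and 41.9 and 57.7, 86.6 and 81.3 at DIV4. For both, D7 remained low and D3 reached the null range or nearly so, and neither genotype difference was called (limma adjusted p = 0.0997 and 0.122). Vldlr, a lipoprotein receptor, ran the other way at DIV2, with 21.6, 12.9 and 23.4 in control and 10.9, 11.3 and 8.998 in null (log2 change -0.79, limma adjusted p = 0.135).

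**Figure D4:**
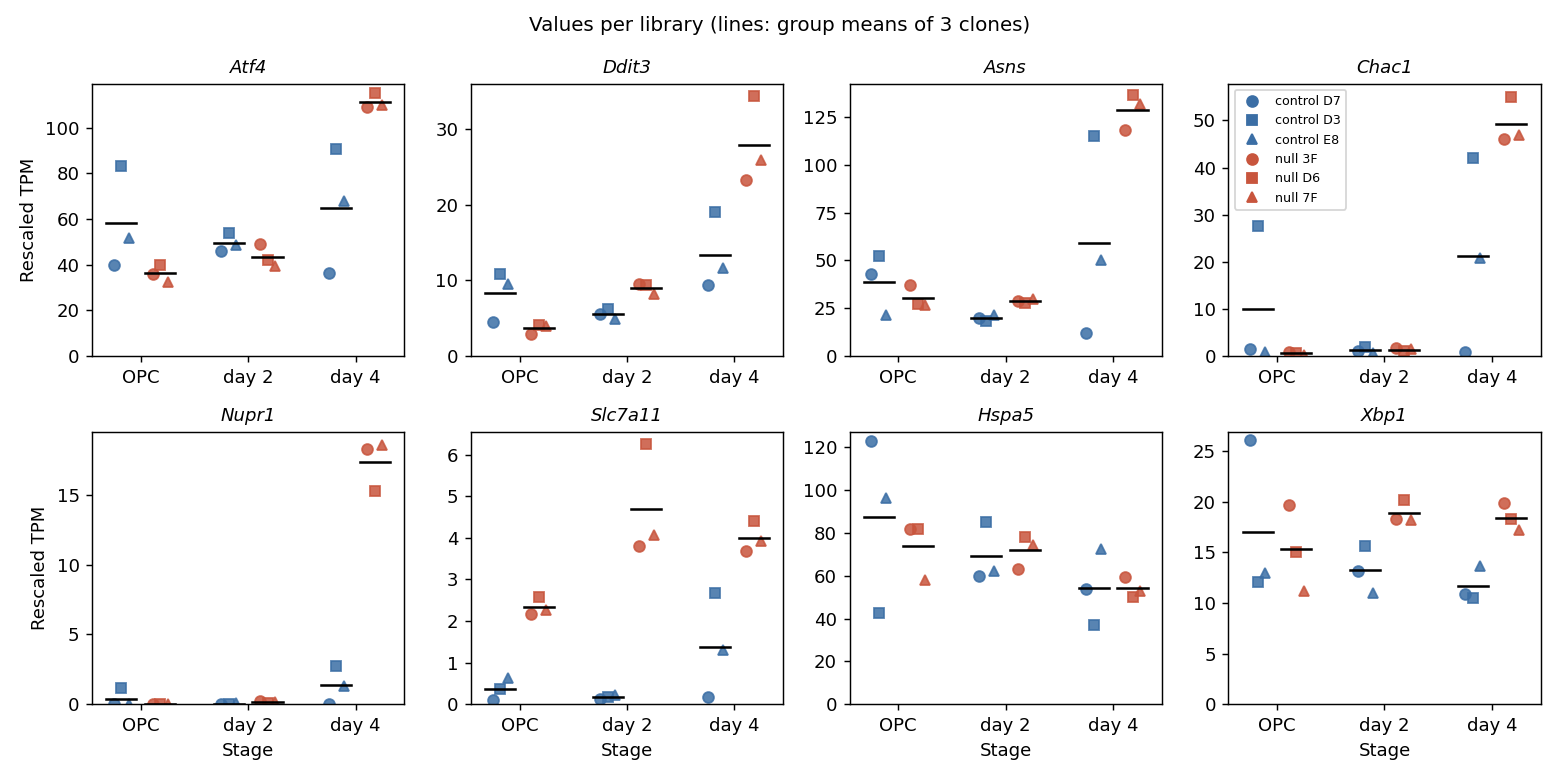
Rescaled TPM of 8 members in each library (points, 1 per clone; horizontal lines are means of 3 clones) by stage, control in blue and null in red. Atf4, Asns and Chac1 show null clones grouped at the top at day 4 and control clones spread below them, Nupr1 shows null above control at day 4 and Slc7a11 at all 3 stages, Hspa5 shows overlapping clones, and Xbp1 shows null above control at days 2 and 4 without a call.

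Of the 4 kinases that phosphorylate eIF2 alpha, 1 was called between genotypes, in OPCs. Eif2ak2, the kinase PKR that responds to double-stranded RNA, had 1.85, 0.68 and 2.04 rescaled TPM in control and 3.07, 3.71 and 2.9 in null OPCs, a log2 change of 0.79 (SE 0.21, adjusted p = 0.028) by limma. Eif2s1, eIF2 alpha itself, had 20.9, 16.8 and 17.2 and 31, 23.5 and 28.7, a change of 0.57 (SE 0.17, adjusted p = 0.0444). Both were higher in all 3 null clones, and at DIV4 neither was called. Eif2s1 is uncertain, as 15.4% of its 31-mers occur in other genes. Eif2ak3, PERK, had 6.33, 4.61 and 4.43 in control and 10.1, 6.45 and 9.54 in null at DIV4, a change of 0.65 that was not called (limma adjusted p = 0.086). Eif2ak1, the heme-regulated kinase, stayed between 4.18 and 5.89 in all 18 libraries, and Eif2ak4, the GCN2 kinase that senses uncharged tRNA, between 1.89 and 5.08.

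In the endoplasmic reticulum arm Herpud1 (ENSMUSG00000031770, chromosome 8, 94386438 to 94395377, plus strand), a membrane component of the degradation of misfolded proteins, was the one member called at DIV4. It had 7.48, 20.9 and 13.2 rescaled TPM in control and 43.2, 29.6 and 38.7 in null, and the groups did not overlap. The log2 change was 1.45 (SE 0.39, adjusted p = 0.0411) by limma. At DIV2 it had 5.66, 9.38 and 5.92 in control and 18.7, 7.75 and 13.7 in null, with null D6 inside the control range. Its DIV4 order of control clones, D7 lowest and D3 highest, was that of the Atf4 arm.

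The sensors and factors of this arm showed small differences. Xbp1, the factor spliced by IRE1, had 10.8, 10.5 and 13.7 rescaled TPM in control and 19.8, 18.3 and 17.2 in null at DIV4, a log2 change of 0.62 that was not called (limma adjusted p = 0.148). Its OPC values were 26.1, 12 and 13 and 19.7, 15 and 11.2. At DIV2 it had 13.2, 15.6 and 11 and 18.3, 20.2 and 18.2. Null exceeded control at DIV2 and DIV4, not in OPCs. Atf6, the membrane-bound factor, changed by 0.37 at DIV4 (limma adjusted p = 0.227), and Ern1, IRE1, by 0.41 (limma adjusted p = 0.234). Ern1 stayed between 0.76 and 2.49 rescaled TPM.

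None of the chaperones of the endoplasmic reticulum was called between genotypes at DIV4. Hspa5, the chaperone BiP, had 123, 42.7 and 96.3 rescaled TPM in control and 81.6, 81.7 and 57.9 in null OPCs. At DIV2 it had 60.1, 84.9 and 62 and 63.3, 78 and 74.2. At DIV4 it had 53.6, 36.8 and 72.6 and 59.2, 49.9 and 52.9. The groups overlapped at every stage, and the log2 change at DIV4 was 0.04 (SE 0.31, limma adjusted p = 0.959). Control D3, which was high for the Atf4 arm in OPCs and at DIV4, was the lowest control clone for Hspa5 at both of those stages.

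Of the other chaperones and folding enzymes, Hsp90b1 (GRP94), Pdia4 (a disulfide isomerase) and Sdf2l1 (a partner of BiP) had log2 changes of -0.23, -0.26 and -0.51 at DIV4. Calr, the lectin chaperone calreticulin, had 62.1, 47.2 and 82.3 rescaled TPM in control and 134, 44.7 and 95.1 in null at DIV4, so the null clones themselves were spread more widely than the genotypes differed. None of these 4 was called by limma in any genotype comparison. At an unadjusted p under 0.05, 3 of the 10 genes of this arm passed at DIV4 (Herpud1, Xbp1 and Atf6), against 22% of all genes. Dnajb9, a cochaperone of BiP, was called in OPCs, with 1.6, 2.75 and 1.75 in control and 3.85, 3.21 and 3.92 in null and a log2 change of 0.64 (SE 0.16, adjusted p = 0.0222). Its level is uncertain, as 11.3% of its 31-mers occur elsewhere.

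**Figure D5:**
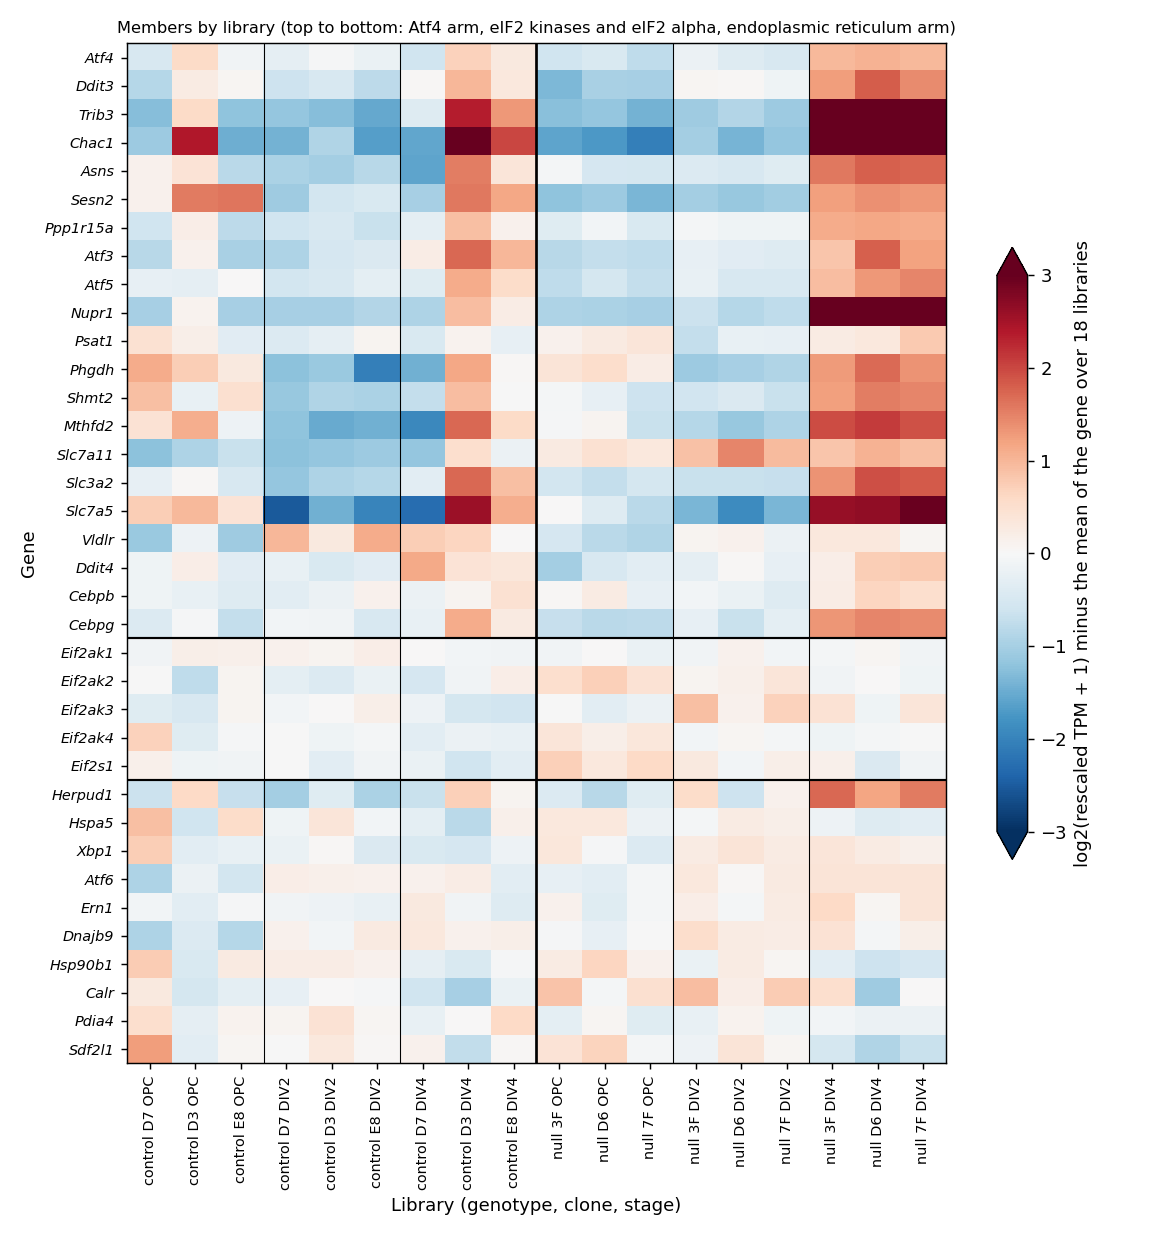
Log2(rescaled TPM + 1) of each of the 36 members (rows, by arm) in each of the 18 libraries (columns, by genotype, stage and clone), minus the mean of the gene; colours are capped at 3 in either direction. The null DIV4 columns are red across most of the Atf4 arm, control D3 DIV4 and E8 DIV4 less so and control D7 DIV4 mostly blue, while the endoplasmic reticulum rows below show no such block.

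Differentiation was compared within each genotype. From DIV2 to DIV4 in the null clones 16 of 35 members were called by limma, all higher at DIV4, against 2.88% of all genes tested and 1.62% called higher. The DIV4 values lay above all DIV2 values for 18 of 20 Atf4 arm genes, against 19.4% of all genes. All 16 called belong to the Atf4 arm (16 of 20), with 0 of 10 in the endoplasmic reticulum arm and 0 of 5 among the kinases and eIF2 alpha. At an unadjusted p under 0.05 those last counts were 3 of 10 and 0 of 5, against 18.2% of all genes. Nupr1 and Atf3, counted among the 16 and the 18, passed the filter only through the null DIV4 group. Their rises were thus favoured by the filter and add no support. In the endoplasmic reticulum arm the DIV4 values lay above all DIV2 values for 2 of 10 genes and below them for 3. Of all 10400 genes, 2017 lay above and 2411 below in this way. Herpud1 (1.16 to 1.81), Atf6 and Ern1 were higher at DIV4 in every null clone. Hspa5, Hsp90b1, Calr (-1.27 to -0.424), Sdf2l1 (-1.3 to -0.374) and Dnajb9 were lower in every null clone, and Xbp1 and Pdia4 were mixed. The median log2 change was 1.88 in the Atf4 arm and -0.108 in the endoplasmic reticulum arm, against -0.0253 over all genes. The largest rises were those of Chac1, 4.40 (SE 0.96, adjusted p = 0.0258), Slc7a5, 4.29 (SE 0.78, adjusted p = 0.0111), and Trib3, 4.18 (SE 0.53, adjusted p = 0.00127). Chac1 started from 1.67, 1.06 and 1.44 rescaled TPM at DIV2 in these clones, and Trib3 from 0.4, 0.6 and 0.38. The Atf4 arm genes without a call were Psat1, Ddit4, Vldlr and Slc7a11, with log2 changes of 0.84, 0.74, 0.22 and -0.17.

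In each null clone taken alone, 19 of 20 Atf4 arm genes were higher at DIV4 than at DIV2, with a median log2 step of 1.69 in 3F, 2.12 in D6 and 2.02 in 7F. Without any 1 of the null clones, Nupr1 alone of the members was called, and the calls over all genes fell from 299 to between 3 and 12, while the median of the arm stayed between 1.80 and 1.98. The higher level in the null clones ran beside lower values of the summed oligodendrocyte markers, from 2413, 2655 and 2172 at DIV2 to 1050, 1888 and 1168 at DIV4, and a gain of the summed astrocyte markers, from 44.3, 45.9 and 41.4 to 259, 184 and 279. Gfap and Aldoc held most of that sum, and Slc1a3 and Slc1a2 were also higher at DIV4 in every null clone. Other members of the astrocyte list did not share the gain: Aldh1l1 went from 4.03, 1.96 and 2.37 to 1.14, 2.06 and 0.86, Aqp4 was at most 0.198 and Gja1 at most 0.034. The part of these markers in the change of the arm was not tested.

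In the control clones 1 of 35 members was called from DIV2 to DIV4, against 0.25% of all genes tested. It was Slc3a2, which went from 9.28, 11.2 and 11.7 to 17.5, 75.5 and 41.9 rescaled TPM, a log2 change of 1.75 (SE 0.34, adjusted p = 0.0487) by limma. At an unadjusted p under 0.05, 16 of 20 Atf4 arm genes passed, against 11% of all genes. The DIV4 values lay above all DIV2 values for 7 of 20, against 6.89% of all genes. The clones differed: 20 of 20 Atf4 arm genes were higher at DIV4 in D3 (median step 1.87), 18 in E8 (1.11) and 12 in D7 (0.0726). Without the DIV4 library of D7, 16 members were called, all in the Atf4 arm and all higher, among them Nupr1, Trib3, Chac1 and Slc7a5, and the median of the arm was 1.49. The same clones paired as a replicate block gave 4 (Atf3, Ddit3, Slc3a2 and Trib3). Without clone D7 at all stages 14 were called, and without any other clone 0. Over all genes 822 were called without the D7 DIV4 library, 62 with the block and 357 without clone D7, against 26 in the unaltered fit.

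Whether the step from DIV2 to DIV4 differed between genotypes was tested as an interaction, and 0 of 35 members were called by limma, against 0% of all genes tested. At an unadjusted p under 0.05, 6 of 35 members passed, against 5.16% of all genes (537). The largest member was Nupr1, at 2.94 (SE 0.50, adjusted p = 0.0912), which was called without clone D3 or without its OPC library. Those fits called 21 and 12 genes in all. Most Atf4 arm genes were thus higher at DIV4 than at DIV2 in all 3 null clones and in control D3 and E8, and the test of a difference between the genotypes in this step was not passed. The DIV4 comparison of genotypes and the null DIV2 to DIV4 comparison share the null DIV4 libraries and are not independent.

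From OPC to DIV2 the control clones had 8 of 35 members called, 3 higher and 5 lower, against 40% of all genes tested, 21.3% higher and 18.7% lower. The share of members was below that of all genes. The 5 that fell were all Atf4 arm genes. Slc7a5 went from 13.3, 15.8 and 10.4 to 0.51, 2.17 and 1.2 rescaled TPM, a log2 change of -2.67 (SE 0.78, adjusted p = 0.0134). Phgdh went from 71.5, 54.4 and 39.8 to 13.1, 14.4 and 7.08, -2.18 (SE 0.45, adjusted p = 0.00156). Mthfd2 went from 15.8, 25.4 and 10.1 to 4.37, 3.35 and 3.57, -1.84 (SE 0.60, adjusted p = 0.0242). For each of these 3 the OPC and DIV2 groups did not overlap, which held, with DIV2 lower, for 21% of all genes. Sesn2 and Shmt2 fell by 1.79 and 1.39 on the log2 scale. These falls hold on the rescaled values: on the deposited TPM, where the median gene rose by 1.99, 4 of the 5 had the opposite sign. Without clone E8, 5 members were called, and Slc7a5, Mthfd2 and Sesn2 were not among them. That fit called 2640 genes in all, against 4160.

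The 3 members that rose from OPC to DIV2 in control were Vldlr, Dnajb9 and Atf6. Vldlr went from 4.21, 9.07 and 4.35 to 21.6, 12.9 and 23.4 rescaled TPM, a log2 change of 1.59 (SE 0.27, adjusted p = 0.000352) by limma. Dnajb9 went from 1.6, 2.75 and 1.75 to 4.42, 3.72 and 4.99 and changed by 0.84 on the log2 scale. Atf6 went from 2.49, 4.82 and 3.48 to 6.56, 6.35 and 6.25 and changed by 0.72. All 3 DIV2 libraries were above all 3 OPC libraries for each of them, as they were for 25% of all genes.

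From OPC to DIV2 the null clones had 5 of 35 members called, 3 higher and 2 lower, against 33.3% of all genes tested, 17.7% higher and 15.6% lower. Ddit3 rose from 2.99, 4.17 and 4.04 to 9.47, 9.38 and 8.2 rescaled TPM, by 1.09 (SE 0.27, adjusted p = 0.00582) on the log2 scale by limma. Eif2ak3 rose from 7.1, 5.58 and 6.25 to 14.3, 7.93 and 12.2, by 0.74 (SE 0.21, adjusted p = 0.0143). Vldlr rose from 6.99, 5.47 and 5.04 to 10.9, 11.3 and 8.998, by 0.75 (SE 0.27, adjusted p = 0.0422). For each the 2 groups did not overlap, which held, with DIV2 higher, for 29.2% of all genes. The 2 that fell were the first enzymes of serine synthesis. Phgdh went from 42.6, 47.1 and 38.1 to 14.8, 15.6 and 16.9, a log2 change of -1.38 (SE 0.45, adjusted p = 0.0273) by limma. Psat1 went from 85.5, 93.2 and 100.8 to 47.2, 66.6 and 64.9, a change of -0.65 (SE 0.22, adjusted p = 0.035). The count was 0 without 3F, 2 without D6 (Ddit3 and Eif2ak3) and 1 without 7F (Ddit3), and 9 and 8 without control D7 and D3. Over all genes those fits called 1589, 1984, 1756, 4076 and 3859 in that order, against 3466.

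The interaction for the step from OPC to DIV2 had 0 of 35 members called by limma, against 0.279% of all genes tested. At an unadjusted p under 0.05, 5 of 35 members passed, all in the Atf4 arm, against 13.8% of all genes (1436). With the clones paired as a replicate block 2 were called, Ddit3 and Sesn2, both in the direction of a greater rise or smaller fall in null. The same 2 were called without clone D7 or without its DIV4 library, and Shmt2 and Vldlr were called without D3. Over all genes 95 were called with the block, 77 without D7, 156 without its DIV4 library and 193 without D3, against 29.

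Promoter sequences were searched for the elements by which the routes are known to act on their targets. RefSeq windows of 250 bases before to 50 bases after the start (GRCm38.p6) matched 34 of 36 members by symbol, all but Slc7a5 and Atf6. The C/EBP-Atf4 composite element, searched as TGATGNAAN on both strands, was found for 7 of 20 Atf4 arm genes, 1 of 9 genes of the endoplasmic reticulum arm and 0 of 5 of the kinases and eIF2 alpha. It occurs in 3.95% of all 32851 promoter windows. The 7 were Asns, Atf3, Chac1, Nupr1, Slc7a11, Trib3 and Vldlr, and the one of the other arm was Herpud1. The endoplasmic reticulum stress element (CCAAT, then 9 bases of any kind, then CCACG) was found for 3 of 9 genes of the endoplasmic reticulum arm, Hspa5, Calr and Hsp90b1, and for none of the other members, against 0.119% of all windows. The related element ERSE-II (ATTGG, then 1 base of any kind, then CCACG) was found for Herpud1 alone among the members, against 0.0365% of all windows. No 2 matches overlapped. Member counts are of genes with a match in any of their windows (38 windows for 34 members), while the shares are of single windows. The Atf4 arm was listed from textbook targets, so its share may follow from how the list was made. A match to these letters is a description of the sequence and not evidence of a bound site.

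Stretches that hold these matches are shown for members the results turn on, 5′ to 3′ in the direction of the gene, on GRCm38.p6, with the matched letters in capitals and all bases before the start. Of the 7 Atf4 arm genes with a composite element 4 are shown, chosen after their values were seen: Asns, Chac1 and Nupr1, which rose in the null clones from DIV2 to DIV4, and Slc7a11, higher in null at all stages. Atf3 and Trib3, which rose in the same step, and Vldlr, which did not, carry the element too and are not shown.
Asns (chr6:7693210-7693262, - strand): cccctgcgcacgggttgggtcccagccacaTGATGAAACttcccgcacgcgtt
Chac1 (chr2:119351018-119351086, + strand): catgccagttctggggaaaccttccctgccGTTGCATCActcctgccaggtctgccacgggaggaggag
Nupr1 (chr7:126625543-126625611, - strand): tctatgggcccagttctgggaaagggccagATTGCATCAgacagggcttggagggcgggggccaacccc
Slc7a11 (chr3:50443623-50443709, - strand): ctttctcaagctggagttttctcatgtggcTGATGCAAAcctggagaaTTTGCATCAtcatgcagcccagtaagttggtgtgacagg
Relative to the gene, Chac1 and Nupr1 carry the element on the opposite strand, and Slc7a11 carries it once on each strand. Herpud1 holds both kinds of match, the composite element on the opposite strand and ERSE-II nearer the start, and it was the gene of its arm called at DIV4.
Herpud1 (chr8:94386286-94386417, + strand): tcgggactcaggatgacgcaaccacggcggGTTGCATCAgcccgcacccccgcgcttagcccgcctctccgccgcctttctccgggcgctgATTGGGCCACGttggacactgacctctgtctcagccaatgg
Hspa5, Calr and Hsp90b1 hold the endoplasmic reticulum stress element, which Calr carries on the opposite strand and Hsp90b1 on both, and none of these genes was called between genotypes.
Hspa5 (chr2:34771995-34772073, + strand): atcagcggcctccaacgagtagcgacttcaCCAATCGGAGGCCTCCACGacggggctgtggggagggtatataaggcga
Calr (chr8:84847045-84847123, - strand): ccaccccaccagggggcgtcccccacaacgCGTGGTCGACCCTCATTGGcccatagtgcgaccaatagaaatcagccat
Hsp90b1 (chr10:86705503-86705686, - strand): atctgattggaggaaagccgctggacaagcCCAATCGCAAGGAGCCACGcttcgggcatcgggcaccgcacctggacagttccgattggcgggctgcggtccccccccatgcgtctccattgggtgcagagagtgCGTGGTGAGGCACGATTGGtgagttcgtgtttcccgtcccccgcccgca

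Another pair of motifs was searched. The Xbp1 element TGACGTGG was in no window of the 34 members and in 0.676% of all windows. The THAP1 motif TNNGGGCA was found for 2 of 20 genes of the Atf4 arm (Ddit4 and Psat1), against 13.9% of all windows. It was also found for 1 of 5 of the kinases and eIF2 alpha (Eif2ak1) and 1 of 9 of the endoplasmic reticulum arm (Hsp90b1). None of these 4 genes was called between genotypes.

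Genes of the same routes outside the members were counted from further lists. At DIV4, 5 of 12 aminoacyl-tRNA synthetases were called by limma, all higher in null, against 5.49% of all genes called and 3.14% called higher, led by Aars (alanyl-tRNA synthetase, log2 change 1.08, SE 0.24, adjusted p = 0.0153), with a median of 0.686. Of 11 tested other amino acid genes 2 were called higher, led by Pycr1 (proline synthesis, 2.00, SE 0.38, adjusted p = 0.00794), with a median of 0.853. By limma none of 14 other integrated stress response genes, 26 other endoplasmic reticulum genes or 7 cytosolic heat shock genes was called, with medians of 0.121, 0.0723 and 0.201 and with 4, 5 and 2 at an unadjusted p under 0.05, which 22% of all genes passed. The lists of amino acid supply thus held 7 called genes at DIV4, beside 0 in the other 3. These calls use the same DIV4 libraries as those of the members and were not recounted under the alternatives. All 5 called synthetases had D7 lowest and D3 highest of the control clones at DIV4, the order of the Atf4 arm.

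In OPCs Sars (seryl-tRNA synthetase, -0.74, SE 0.18, adjusted p = 0.0155 by limma) and Aldh18a1 (proline synthesis, -1.22, SE 0.38, adjusted p = 0.0487) were the genes called lower in their lists, 1 of 12 and 1 of 11, against 5.95% of all genes. Of 26 other endoplasmic reticulum genes 4 were called higher in null OPCs, against 5.92% of all genes, led by Sec61b, a subunit of the protein translocation channel (1.06, SE 0.22, adjusted p = 0.00754). At DIV2 no gene of these 5 lists was called by limma, and 2, 3, 0, 8 and 0 passed at an unadjusted p under 0.05, in the order given for DIV4, against 15.9% of all genes. From DIV2 to DIV4 in the null clones 9 of 12 synthetases and 7 of 11 other amino acid genes rose, against 1.62% of all genes, with medians of 1.06 and 1.47. In the same comparison 2 of 14 other integrated stress response genes rose, and 1 of 26 other endoplasmic reticulum genes was called, lower, against 2.88% of all genes called in either direction. Of the 7 tested cytosolic heat shock genes Hsf1 was called, higher (log2 change 0.52, SE 0.13, limma adjusted p = 0.0417).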

How the data were processed

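RNA-seq of 18 libraries was analysed, 3 control and 3 Thap1 null clones at 3 stages, made with a stranded total RNA kit and rRNA removal per the labels' protocols. The authors deposited TPM per Ensembl transcript (93666 transcripts, 47103 of them protein-coding), and each library sums to the same fixed total, so depth is unknown and no counting error can be given. The submitters' processing notes name STAR, Picard and mm10. The quantifier, annotation and strand setting are not given in the sources used here.

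From these values protein-coding TPM was summed by gene name and divided by a median-of-ratios factor over 12320 genes. Genes with a mean of at least 1 (10400) entered a model of log2(rescaled TPM + 1) in limma 3.58.1 (R 4.3.3); the added 1 understates changes of low genes. It had one mean per group, a mean trend and Benjamini-Hochberg adjustment, and a gene was called at adjusted p under 0.05. SE is the standard error of the log2 change. Each p-value sets a change against the spread between clones, pooled over all groups. Libraries of 1 clone at different stages were taken as independent in this fit, and clones may share an origin. A group wider than the rest thus has its own spread understated. For the mean of the Atf4 arm the standard deviation was 0.976 in control DIV4 and 0.133 in null DIV4. The fit was tested on simulated data. Positions come from GENCODE M21 (GRCm38), which held 96.5% of the transcripts. 25 gene names had been turned into dates in the table.

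Members, lists and markers were chosen with earlier results of these data known. All 36 members are accounted for. Values per library are given for Atf4, Ddit3, Hspa5, Xbp1 and each member called between genotypes, and for the 3 largest called rises and falls per stage comparison and genotype. Values of further members were added after they were seen. Other lists are given by counts and their largest called rise and fall. Genes sharing at least 10% of 31-mers with other genes are called uncertain. Clone names pair the stages, since 1 clone is 1 cell line: over 18 pairs of libraries of the same clone, deviations from the group means correlated at 0.0258 to 0.653, and 15 pairs exceeded 0.1. Alternatives changed the scaling, pseudocount, filter, biotypes, variance model, libraries and block.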

Additional observations from a re-analysis of the deposited data

Results flagged for a closer look

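4 members moved one way in every control clone and the other way in every null clone between 2 stages, on the log2(rescaled TPM + 1) scale: 3 of 35 (8.57%) from OPC to DIV2, against 3.6% of all 10400 genes tested, and 1 of 35 (2.86%) from DIV2 to DIV4, against 5.02%. From OPC to DIV2, Chac1 changed by -3.29 to -0.174 in the control clones and by 0.311 to 0.902 in the null clones, a difference of 1.85 between the mean steps. Atf5 changed by -0.322 to -0.196 in control and 0.0465 to 0.527 in null, a difference of 0.548. Herpud1 changed by -0.972 to -0.26 in control and 0.217 to 0.954 in null, a difference of 1.09. From DIV2 to DIV4, Slc7a11 changed by 0.0635 to 1.66 in control and by -0.425 to -0.0329 in null, a difference of -1.04. The interaction test in limma did not pass for any of the 4, with adjusted p = 0.599 for Chac1, 0.557 for Atf5, 0.399 for Herpud1 and 0.902 for Slc7a11. The widest of these steps, that of Chac1 in control, rests on the OPC library of control D3.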

How the results depend on the processing

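The median change of the Atf4 arm minus that of the endoplasmic reticulum arm kept its sign under every alternative, at -0.684 to -0.172 in OPCs, 0.0569 to 0.331 at DIV2 and 0.473 to 1.32 at DIV4. A change of library scaling shifts both arms nearly alike and largely cancels in this difference. The scaling alternatives could therefore hardly change its sign. Of 694 values of 44 single-member results, 497 kept direction and call, 192 lost the call and 5 reversed. The 5 were all on the deposited TPM without a factor: Ddit3 in null against control OPCs at 0.72, and, in control DIV2 against OPC, Mthfd2 at 0.45, Phgdh at 0.41, Sesn2 at 0.57 and Shmt2 at 1.05. There the median of all genes itself shifted by 1.49 and 1.99. Counts of members called moved by over 1.5 times as follows, and the cause was not tested. Calls over all genes moved in many of these alternatives too. On the deposited TPM they were 26 (null against control, OPC), 1 (DIV4), 26 (control, DIV2 against OPC), 2 (control, DIV4 against DIV2), 10 (null, DIV4 against DIV2) and 18 (interaction, OPC to DIV2). With all protein-coding totals made equal they were 3 (null against control, DIV4), 0 (control, DIV4 against DIV2) and 3 (null, DIV2 against OPC). For control DIV4 against DIV2, quantile normalization gave 2, and a pseudocount of 0.1, no filter, all biotypes, no mean trend and only the groups compared gave 0 each. Without a filter 2 were called in null against control at DIV4 and 2 in null DIV2 against OPC, where all biotypes gave 3. With a mean of at least 5, 3 were called in OPCs and 0 at DIV2 between genotypes. With only the groups compared the counts were 1, 4 and 1 between genotypes at OPC, DIV2 and DIV4, and 12 in null DIV2 against OPC. The replicate block gave 4 in control DIV4 against DIV2 and 2 in the interaction from OPC to DIV2, and moved no other count by over 1.5 times. In alternatives chosen after seeing the data, leaving the DIV4 library of control D7 aside gave 1 (null against control, DIV4), 16 (control, DIV4 against DIV2) and 2 (interaction, OPC to DIV2), and leaving the OPC library of control D3 aside gave 3 (control, DIV4 against DIV2) and 1 (interaction, DIV2 to DIV4). Leaving out each clone in turn gave 0 to 7, 1 to 2 and 1 to 16 between genotypes at OPC, DIV2 and DIV4. It gave 5 to 8 and 0 to 14 for the first and second step in control, 0 to 9 and 1 to 19 in null, and 0 to 2 and 0 to 2 for the interactions. Among all genes called, 49.9% were higher in null OPCs, against 99.8% on the deposited TPM (9389 called) and 93.3% with equal totals (2796 called, against 1235). At DIV4 the share was 57.3% against 27.6% on the deposited TPM (293 called). Depth is unknown, so values near 0 carry no counting limit.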
